A study of Mus musculus with 6 samples.

Results

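The miR-17 to miR-92a cluster is a set of 6 microRNA hairpins cut from 1 primary transcript, and its mature products were measured here in the lungs of newborn mice. The deposited RT-PCR table holds 768 wells, of which 750 are miRNA assays, and 7 wells matched the names miR-17, miR-18a, miR-19a, miR-19b, miR-20a or miR-92a once species prefixes and arm suffixes were dropped. Of the 7, 6 are the mature miRNAs themselves and 1 is a rat-named assay of the opposite strand, rno-miR-17-3p. The naming rule itself uses no measured value, but the cluster was picked with earlier results of these data known. Wells whose name ends in # are opposite strands and are described separately.

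Right lungs were taken at day 7 of life, after the pulmonary artery had been rinsed with buffer, from newborn mice placed in their atmosphere before 12 h of age. In the hyperoxia group (3 samples) the pups breathed 95% oxygen for 7 days, which the labels also give as 168 h, and in the control group (3 samples) they breathed room air. The nursing dams were rotated daily between the chambers. The labels give no strain or sex and do not state whether each sample is its own animal. The p-values therefore describe only how far these samples scatter, some of which may be technical.

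Products of the miR-17 to miR-92a cluster are known as growth-promoting miRNAs: MYC and E2F factors induce the transcript, and its miRNAs repress the cell cycle inhibitor p21, the pro-apoptotic BIM and the TGF-beta receptor type II. In mouse lung the cluster is high in the embryonic epithelium and declines as the lung matures, mice that lack it die around birth with underdeveloped lungs, and its overexpression in lung epithelium keeps progenitor cells dividing. The hairpins are processed one by one after transcription, so the mature levels of neighbours in 1 transcript need not be equal.

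In the GRCm38.p6 annotation of RefSeq the 6 hairpins lie on the plus strand of chromosome 14 between bases 115043671 and 115044506, within 836 bases, in the order Mir17, Mir18, Mir19a, Mir20a, Mir19b-1 and Mir92-1. The host gene Mir17hg is annotated from 115044390 to 115046728, a span that takes in the Mir92-1 hairpin and none of the other 5. All 6 mature sequences were found in RefSeq by name. They are given because the seed, bases 2 to 8 (in capitals), sets which messenger RNAs a miRNA pairs with and divides the cluster into 4 groups.
mmu-miR-17: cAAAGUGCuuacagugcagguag
mmu-miR-20a: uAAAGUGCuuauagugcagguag
mmu-miR-18a: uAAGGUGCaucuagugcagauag
mmu-miR-19a: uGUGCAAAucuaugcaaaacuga
mmu-miR-19b: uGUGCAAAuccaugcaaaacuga
mmu-miR-92a: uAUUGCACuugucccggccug

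miR-17 and miR-20a share the seed AAAGUGC, miR-19a and miR-19b share GUGCAAA, and miR-18a and miR-92a each have a seed that no other member holds. Among the 1679 mature mouse miRNAs of the RefSeq table that were compared, 7 carry the seed of miR-17, 2 that of miR-18a, 2 that of miR-19a and 6 that of miR-92a. Counted from the 5′ end of the first-named sequence, miR-19a and miR-19b differ by U11C alone, and miR-17 and miR-20a by C1U and C12U. The paralog miR-106a, encoded on the X chromosome, differs from miR-17 by U10A alone.
miR-106a: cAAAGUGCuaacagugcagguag
How far each assay tells such sequences apart was not tested. In addition, the mature sequences of miR-19b and miR-92a are each encoded at 2 loci, in this cluster and in the miR-106a to miR-363 cluster on the X chromosome, so these 2 assays read both clusters together.

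Each value is a threshold cycle (Ct), the number of PCR cycles a well needed to reach a set signal. Abundant RNA gives a low Ct, and with perfect doubling 1 cycle corresponds to a 2-fold difference. Each sample was read on 2 cards of 384 wells, and all 7 matched wells lie on the first. Per sample, 307 to 319 miRNA wells of the first card and 268 to 293 of the second had a Ct under 35 and counted as detected. On the second card room air 1 and hyperoxia 2 shared 308 of 309 amplified values, so those values were left out of both samples and second-card assays rest on 2 samples per group. Of their 312 jointly amplified first-card values, 0 were equal. All 21 marker assays for endothelium, epithelium, smooth muscle, blood cells, striated muscle and liver amplified under the ceiling in every sample that had a value. They include the endothelial miR-126-3p and the epithelial miR-200 family, but also the liver miR-122, so detection alone does not mark the tissue as lung.

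All 6 cluster miRNAs were detected in all 6 lungs, and all 6 had negative log2 fold changes in hyperoxia, from -0.53 to -0.19. Here and below, unless another reference is named, values are relative to the mean of the miRNAs that the card detected in every sample. None of the 6 passed the test over all 551 assays (limma, threshold of 0.05 on the Benjamini-Hochberg adjusted p), and 0% of all assays did. The members' adjusted p ran from 0.658 to 0.867, and 0 of the 6 had an unadjusted p under 0.05, against 9.07% of all assays in either direction and 5.44% lower in hyperoxia. The median of the 6 was -0.47, beside -0.13 for the 302 first-card assays tested and -0.12 for all 551. Negative values were common: 58.9% of the first-card assays had one.

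mmu-miR-17, the first miRNA of the transcript and a repressor of p21 and the TGF-beta receptor type II, crossed at a Ct of 15.31, 15.88 and 16.23 in room air 1 to 3, compared with 17.38, 16.15 and 17.68 in hyperoxia 1 to 3. Hyperoxia 2 fell inside the room air range, while the other hyperoxia lungs were more than a cycle later than every room air lung. Its log2 fold change was -0.50 ± 0.30 (SE; 95% interval -1.25 to 0.25; limma adjusted p = 0.689), or -0.32 without hyperoxia 3.

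mmu-miR-20a, which shares the seed of miR-17, was read at 15.71, 16.44 and 16.35 cycles in the room air lungs, compared with 17.16, 16.39 and 17.80 in the hyperoxia lungs. Hyperoxia 2 again fell inside the room air range. Its log2 fold change of -0.19 ± 0.30 (95% interval -0.95 to 0.56; limma adjusted p = 0.867) was the nearest to 0 of the cluster, and it was 0.028 without hyperoxia 3, -0.35 without hyperoxia 1 and -0.29 without hyperoxia 2.

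mmu-miR-18a, a repressor of the matrix-associated growth factor CTGF, had the latest Ct of the 6. Room air lungs gave 22.29, 22.43 and 22.43 cycles, and hyperoxia lungs gave 23.70, 22.55 and 24.18. All 3 hyperoxia values were later, hyperoxia 2 by 0.12 cycles over the latest room air value. Relative to the card the groups overlapped, with a log2 fold change of -0.33 ± 0.33 (95% interval -1.15 to 0.48; limma adjusted p = 0.772), which was -0.10 without hyperoxia 3 and -0.53 without hyperoxia 2.

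mmu-miR-19a and mmu-miR-19b, the products that carry much of the cluster's oncogenic activity in mouse lymphoma, had the most negative values. Room air lungs gave 18.60, 19.33 and 19.05 cycles for miR-19a, where hyperoxia lungs gave 20.94, 19.52 and 20.40. All hyperoxia values were later, and the groups also stayed apart after normalization, where the log2 fold change was -0.53 ± 0.27 (95% interval -1.20 to 0.13; limma adjusted p = 0.658).

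mmu-miR-19b had the earliest Ct of the 6, at 13.28, 13.64 and 14.08 cycles in the room air lungs, compared with 15.61, 14.06 and 15.21 in the hyperoxia lungs. Hyperoxia 2 lay just inside the room air range and the others beyond it. The log2 fold change was -0.53 ± 0.28 (95% interval -1.22 to 0.16; limma adjusted p = 0.667).

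mmu-miR-92a, the last miRNA of the transcript, which restrains vessel growth in endothelial cells, was read at 16.11, 16.38 and 16.71 cycles in the room air lungs, compared with 17.71, 16.74 and 18.33 in the hyperoxia lungs. Hyperoxia 2 was 0.035 cycles later than the latest room air value, and the groups stayed apart after normalization. The log2 fold change was -0.43 ± 0.32 (95% interval -1.22 to 0.36; limma adjusted p = 0.689), and -0.19 without hyperoxia 3. Across the 6 members the intervals reached from -1.25 at the lowest to 0.56 at the highest, and all 6 held 0.

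**Figure D1:**
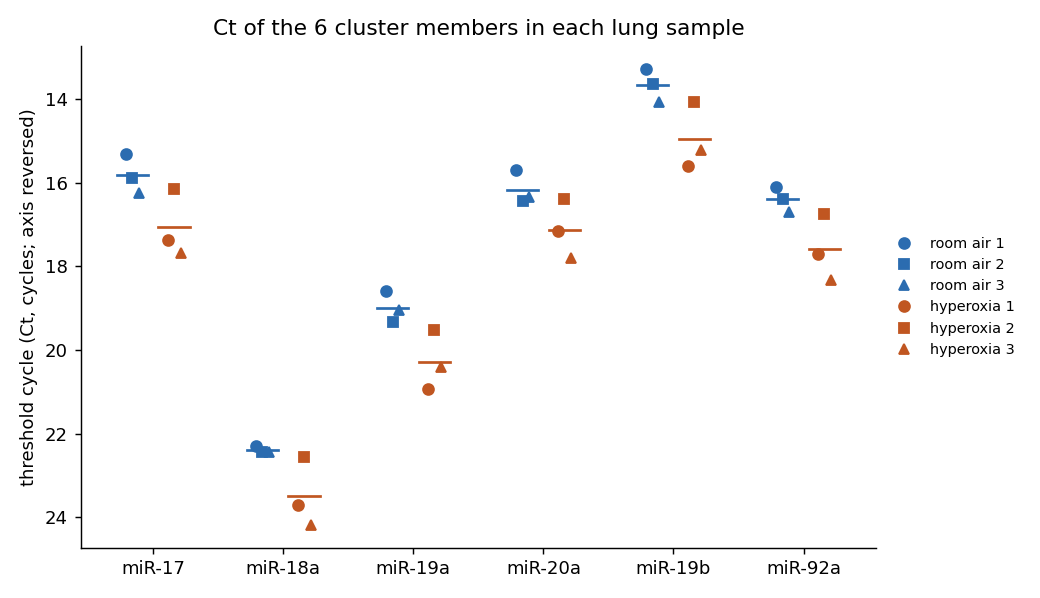
Threshold cycle (Ct, y axis, reversed so that more RNA is higher) of the 6 cluster members in genomic order (x axis), with 1 point per lung sample and a line at each group mean. Hyperoxia 2 (orange square) lies at or next to the room air points for every member, from 0.085 cycles earlier to 0.19 cycles later than the latest room air sample, and the other hyperoxia samples lie below.

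The opposite-strand assay rno-miR-17-3p, which the naming rule also takes in, amplified in 1 of 6 samples, room air 2, at a Ct of 30.46, and stood at 40, the mark of no amplification, in the other 5. It was not tested. On the second card the mouse-named assay of this strand, miR-17#, did amplify, at 24.98 to 25.93 cycles in room air 2 and 3 and hyperoxia 1. The readings of miR-17# are described below, and the identity of second-card assays is uncertain. The mouse sequence of this strand, from the other arm of the Mir17 hairpin, has a different seed than miR-17. The rat sequence, for which the assay is named, was not compared.
miR-17-3p: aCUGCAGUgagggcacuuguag

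Averaged over the 6 members, the log2 relative abundance was 5.15, 5.13 and 5.12 in the room air lungs, compared with 4.72, 5.04 and 4.38 in the hyperoxia lungs. The room air averages were nearly equal, though single members had room air SDs of 0.12 to 0.22. The average of hyperoxia 2 lay 0.080 below the lowest room air average. For miR-17, miR-18a, miR-19b and miR-20a singly, hyperoxia 2 lay inside the room air range. Hyperoxia 1 lay inside it too for miR-18a and miR-20a, so for these only hyperoxia 3 was below room air. Hyperoxia 3 was the lowest sample for 4 of 6 members and hyperoxia 1 for the other 2. Hyperoxia 2 was the highest hyperoxia sample for 5 of 6 members. The 6 values share the same samples and the same reference and are not independent measurements.

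**Figure D2:**
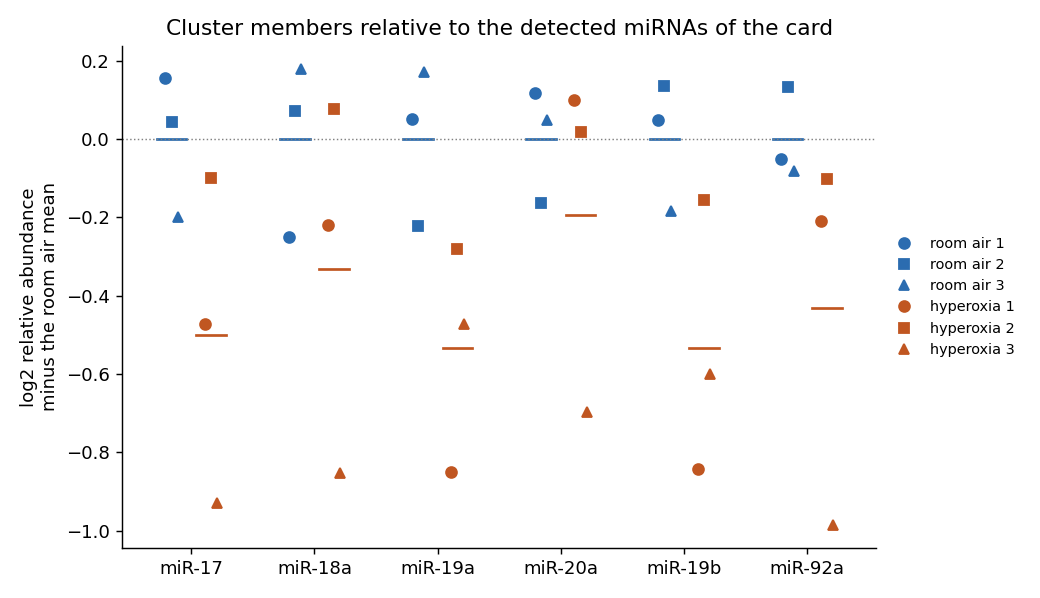
Log2 relative abundance of each member (y axis) minus its room air mean, with 1 point per lung sample and a line at each group mean. The hyperoxia means lie between -0.53 and -0.19, and the groups do not overlap for miR-19a and miR-92a.

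After normalization the groups did not overlap for 2 of 6 members, miR-19a and miR-92a, both lower in hyperoxia, where 16.2% of the first-card assays had this pattern and 22.5% had groups apart in either direction. The count changed with the samples and with the processing. It was 4 of 6 without room air 3 and also without hyperoxia 2, and stayed at 2 of 6 without any other single sample. It was 0 of 6 with a Ct ceiling of 32, with U6 as reference or with quantile normalization. In Ct without any reference, every hyperoxia sample was later than every room air sample for 3 of 6 members, miR-18a, miR-19a and miR-92a, against 45% of the first-card assays. The most negative member, miR-19a, had 70 of the 302 first-card assays below it, and miR-20a had 140.

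**Figure D3:**
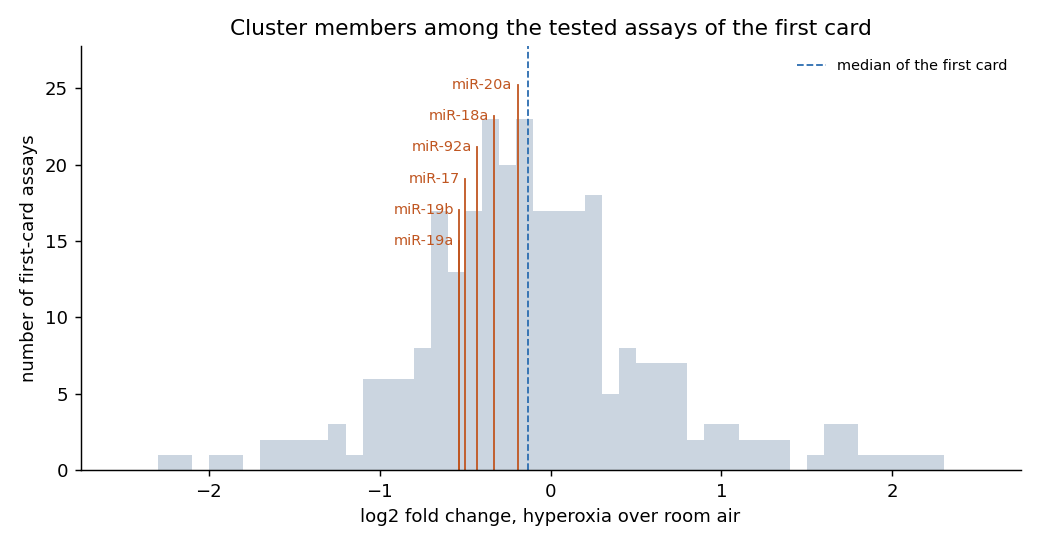
Histogram of the log2 fold changes (x axis, hyperoxia over room air) of the first-card assays, in number of assays (y axis), with the 6 members as orange lines and the median of the card dashed; 284 of 302 assays lie within the plotted range. All members lie to the left of the median, within the bulk of the assays.

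The comparison of members with each other needs no reference RNA, since 2 Ct values from the same sample are subtracted. Of the 15 pairs of members, 0 differed between the groups beyond the spread of the samples: all 15 overlapped, and the exact permutation p (two-sided, smallest possible value 0.1) ran from 0.3 to 1, or 0.964 to 1 after Benjamini-Hochberg adjustment over the 15. miR-19a and miR-19b, a pair with the same seed, stood -5.33 ± 0.36 apart on the log2 scale in room air and -5.33 ± 0.13 in hyperoxia (SD, n = 3 each; exact permutation p = 1). For the other same-seed pair, miR-20a minus miR-17 was -0.36 ± 0.23 in room air and -0.051 ± 0.24 in hyperoxia (SD, n = 3 each, exact permutation p = 0.3). Each distance is a difference of Ct, and since assays differ in efficiency it is no ratio of amounts.

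miR-17 and miR-92a, at opposite ends of the transcript, stood at a distance of 0.59 ± 0.18 in room air and 0.53 ± 0.17 in hyperoxia (SD, n = 3; exact permutation p = 0.7). The widest shift between groups was that of miR-19a against miR-20a, -0.34, from -2.83 ± 0.11 to -3.17 ± 0.59 (SD, n = 3; exact permutation p = 0.5). Hyperoxia 1 was the farthest from room air, at -3.78, with the other hyperoxia samples at -3.13 and -2.60. The widest shift among the pairs ran from 0.20 to 0.62 when single samples were left out. These tests cannot pass a threshold of 0.05 with 3 samples against 3 and do not show that the members moved alike.

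The reference chosen sets how large the members' values are. The mean Ct of the 6 members was 1.18 cycles later in hyperoxia, the card's reference miRNAs were 0.76 cycles later, the U6 wells 0.75 and the average of the 5 small RNA controls (U6, snoRNA135, snoRNA202, U87 and Y1) 0.20. Relative to those 5 controls the members' mean was -0.43, -0.22 and -0.76 on the log2 scale in the room air lungs, compared with -1.79, -1.17 and -1.41 in the hyperoxia lungs. All 3 hyperoxia samples were then below all room air samples, hyperoxia 2 included, and this held for 6 of 6 members singly, against 35.8% of the first-card assays.

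With the 5 controls as reference the median of the members was -1.03, beside -0.69 for the first card, and all 6 had an unadjusted p under 0.05, against 14.9% of all assays that were lower at that level. None passed the adjusted threshold, nor did any other assay (0%). miR-19a was at -1.10 ± 0.37, miR-17 at -1.06 ± 0.35 and miR-20a at -0.76 ± 0.27, each with a limma adjusted p of 0.261. Relative to U6 the members' mean was -7.52, -7.30 and -7.22 in the room air lungs, compared with -8.00, -7.10 and -8.24 in the hyperoxia lungs, where hyperoxia 2 stood above all room air samples. The U6 wells disagreed among themselves, at 0.43 cycles later in row A and 1.06 in row B of the plate, and U87 was 0.13 cycles earlier. Within each row the U6 wells held identical values in every sample, and rows A and B were identical in room air 1 and 3.

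**Figure D4:**
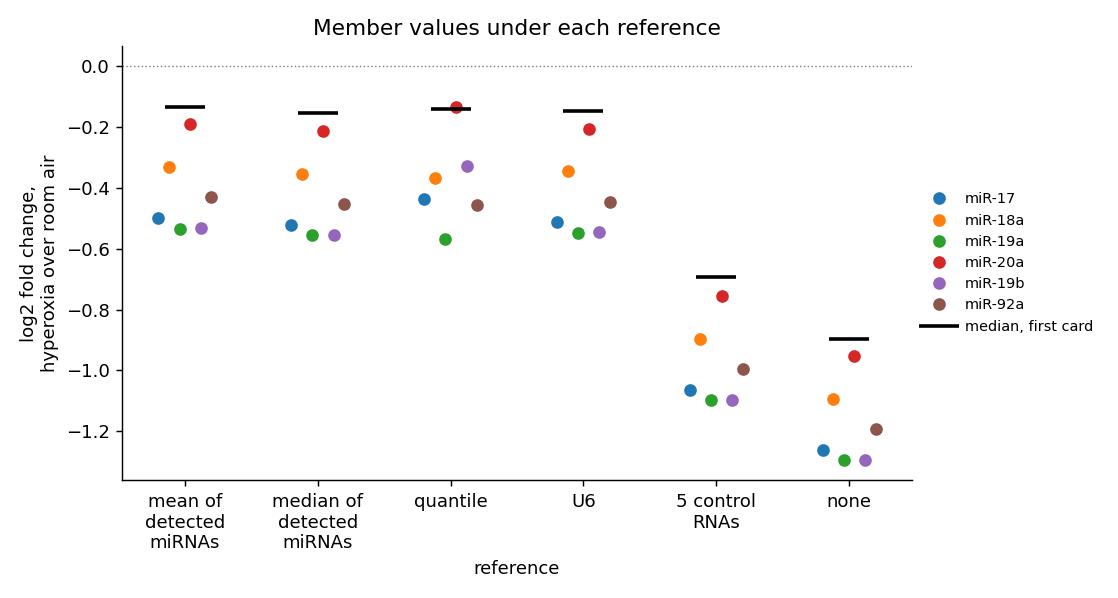
Log2 fold change of each member (y axis, hyperoxia over room air) under 6 choices of reference (x axis), with the median of the first card as a black bar. The members' median runs from -0.40 with quantile normalization to -1.23 without normalization, and the median of the card moves with it, from -0.14 to -0.90.

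The opposite strands of the same hairpins were read on the second card. Of 6 wells with a # name, 4 were tested, and 0 passed. miR-18a# was at -0.033 ± 0.56, miR-20a# at -0.044 ± 0.58 and miR-92a# at -0.0038 ± 0.46 (SE, n = 2 per group; limma adjusted p from 0.982 to 0.996), and the sign of all 3 turned with the reference. Their intervals, -1.72 to 1.63 at the widest, hold every value seen in the guide strands, so the strands were not shown to differ. The identity of second-card assays is itself uncertain: of 105 names there that carry an assay number, 105 match the number listed 3 wells later and 0 the number in their own well.

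miR-17# crossed at 25.93 cycles in room air 2, 24.98 in room air 3 and 25.18 in hyperoxia 1, but at 5.08 in hyperoxia 3, the lowest Ct of any miRNA well on either card. miR-19a#, the next well in the listing, stood at 35.09 to 35.20 in room air 2 and 3 and hyperoxia 1, past the ceiling, and at 22.93 in hyperoxia 3. The fitted log2 fold change of miR-17#, 10.51 ± 7.50 (limma adjusted p = 0.703), rests on that single reading. The cause of these 2 readings was not tested. rno-miR-20a# was not detected in any of the samples used.

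The paralog clusters arose from the same ancestral cluster. The miR-106a to miR-363 hairpins lie on the X chromosome and the miR-106b, miR-93 and miR-25 hairpins on chromosome 5. Of 8 wells for their named products 7 were tested, 6 with negative values and a median of -0.40, and 0 passed. Of all 551 assays tested, 319 had negative values. miR-18b, which differs from miR-18a by A18U and A20U counted from the 5′ end of miR-18a, stood at 40 in all 6 samples.

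miR-93, which has the seed of miR-17 and miR-20a, was read at 18.90, 19.13 and 19.69 cycles in the room air lungs, compared with 21.15, 20.45 and 21.23 in the hyperoxia lungs. Here hyperoxia 2 was later than every room air sample, as it also was for the paralogs miR-106b and miR-363. After normalization the groups of miR-93 and miR-106b did not overlap, a pattern of 16.2% of the first-card assays. The log2 fold change of miR-93 was -0.95 ± 0.24 (95% interval -1.54 to -0.35, limma adjusted p = 0.333). Set against miR-17 in the same samples it was 0.45 lower in hyperoxia, with miR-93 minus miR-17 at -3.43 ± 0.17 in room air and -3.88 ± 0.38 in hyperoxia (SD, n = 3; exact permutation p = 0.2).

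That contrast was 1 of 6 between a first-card paralog and the member nearest to it in sequence or seed, all chosen after the values were seen, and after adjustment over the 6 the permutation p ran from 0.6 to 0.7. miR-106a, a single base away from miR-17, was at -0.60 ± 0.33 (limma adjusted p = 0.68) and shifted against miR-17 by -0.099 (exact permutation p = 0.6). miR-106b was at -0.44 ± 0.26, miR-20b at -0.30 ± 0.34 and miR-363 at -0.19 ± 0.30, and the second-card rno-miR-20b at -0.40 ± 0.33, with limma adjusted p from 0.689 to 0.867. With 1 sample left out, miR-20b ran from -0.45 to -0.023, the latter without hyperoxia 3, and miR-363 from -0.41 without room air 1 to -0.042 without hyperoxia 2.

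miR-25, which carries the seed of miR-92a, was the paralog with a positive value, 1.92 ± 1.73 (limma adjusted p = 0.754). Room air lungs gave 20.69, 21.27 and 20.98 cycles, and hyperoxia lungs gave 21.95, 15.24 and 22.27, so hyperoxia 2 was more than 5 cycles earlier than every other sample. Without hyperoxia 2 it was at -0.098. Among the 6 paralog contrasts, miR-25 minus miR-92a had the widest shift, 2.35. It stood at -4.58 ± 0.31 in room air and -2.23 ± 3.23 in hyperoxia (SD, n = 3). Its exact permutation p was 0.1, the smallest possible, or 0.6 after adjustment over the 6. Hyperoxia 1 and 3, at -4.24 and -3.94, also lay above the highest room air sample, at -4.27, hyperoxia 1 only narrowly. Outside the paralog clusters, miR-32, with the seed of miR-92a, was at -1.03 ± 0.75 and miR-367, with the same seed, at 0.053 ± 0.25 (limma adjusted p = 0.689 and 0.948). The value of miR-32 includes a Ct of 28.88 in hyperoxia 1, where the other 5 samples lay between 24.38 and 26.21, and without hyperoxia 1 it was -0.22.

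**Figure D5:**
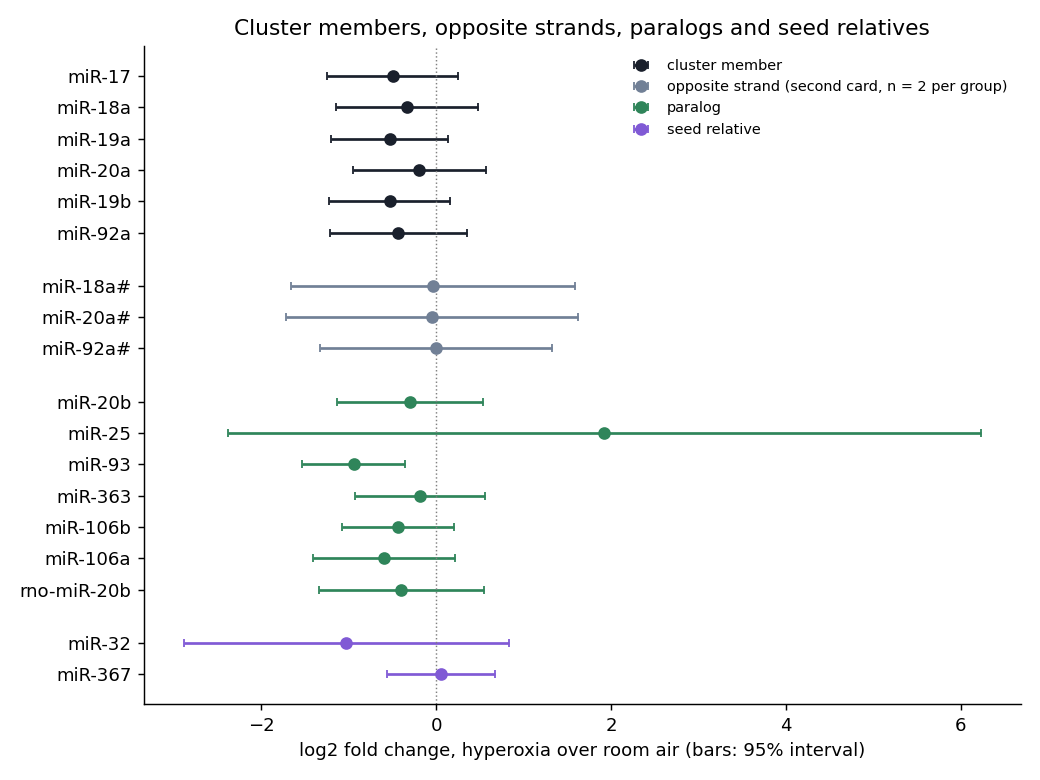
Log2 fold change of hyperoxia over room air (x axis) with its 95% interval for the cluster members, their opposite strands, the paralogs and the seed relatives. The intervals of all 6 members cross 0; miR-18a#, miR-20a#, miR-92a# and rno-miR-20b rest on 2 samples per group, and miR-17#, at 10.51, is left out of the plot.

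By the likeness of their profile over the 6 samples, the 5 first-card assays closest to the members' mean, among the 268 that are neither members, paralogs nor seed relatives, were miR-467a, miR-434-3p, miR-380-5p, miR-342-5p and miR-409-3p, with a root mean square difference of 0.14 to 0.19 on the log2 scale. The median over the 268 was 0.52. Their log2 fold changes were -0.50, -0.48, -0.35, -0.25 and -0.66, and 0 of the 5 passed. Since the ranking used the samples of both groups, values near those of the members follow from the choice. Of the paralogs, which were set aside from that ranking, miR-20b lay 0.19 from the members' mean and miR-106a and miR-106b 0.25. Set against the mean of the other 5, the members lay between 0.14 (miR-17) and 0.30 (miR-19a).

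Of the 21 cell type marker assays, 15 had negative values, beside 319 of all 551 assays tested, and 0 passed. The groups did not overlap for 4 of the 20 first-card markers, all lower in hyperoxia, against 16.2% of the card: the lymphocyte miR-150, the smooth muscle miR-145, the epithelial miR-203 and the striated muscle miR-208b, named here after their values were seen. Every other marker of the smooth muscle, epithelial and striated muscle lists had overlapping groups, and the epithelial miR-200a was at 0.096. miR-208b was read late, at a Ct of up to 32.9. miR-150, at -1.09 ± 0.27 (limma adjusted p = 0.333), had a relative level (2 to the power of the log2 relative abundance) of 56.1 to 85.4 in room air and 29.9 to 38.8 in hyperoxia. The level of the endothelial miR-126-3p was 954 to 2198 in room air and 956 to 1077 in hyperoxia.

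Levels summed over a marker list weight its most abundant assays and are no amounts, since assays differ in efficiency. The 3 striated muscle markers summed to 10.6 to 21.4 in room air and 4.58 to 10.9 in hyperoxia. The 4 smooth muscle and mesenchymal markers summed to 333 to 395 and 253 to 332, but the list was split, with miR-145 at -0.68 and miR-143 at -0.29, and miR-199a-3p at 0.24 and miR-214 at 0.49. The 7 epithelial markers summed to 170 to 190 and 115 to 194, and the 2 myeloid markers to 34.1 to 36.3 and 36.2 to 107.

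The 2 erythroid markers had values of opposite sign, 0.71 ± 1.20 for miR-451 and -1.29 ± 0.32 for hsa-miR-144 (limma adjusted p = 0.868 and 0.446), the latter a second-card assay whose groups, of 2 samples each, did not overlap. The liver marker miR-122 was low in both groups, at a level of 0.0506 to 0.161 and 0.0083 to 0.197. The markers' part in the members' values was not tested, and in whole lung RNA fewer cells of a type and less RNA per cell cannot be told apart.

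In the authors' deposited table the fold of hyperoxia over room air was 0.564 for miR-17, 0.633 for miR-18a, 0.55 for miR-19a, 0.551 for miR-19b, 0.698 for miR-20a and 0.591 for miR-92a. These folds carry no error or test, and the file does not name their reference. For all 6 members the raw Ct difference exceeded the authors' deposited delta delta Ct by 0.434 cycles, and among the control wells the row A wells of U6 have this difference, 0.433 cycles.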

How the data were processed

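Per the labels' protocols, cDNA was made from lung RNA with Megaplex primer sets A and B and pre-amplified for 12 cycles. The authors deposited 1 table with a Ct per well for each of the 6 samples and, per the file headers, a fold (ratio) between the group means. How the Ct threshold was set is not stated in the labels. Samples were grouped by their titles.

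A Ct of 35 or more was treated as not detected. Log2 relative abundance is the mean Ct of the miRNAs detected in every sample used (282 assays on the first card, 249 on the second) minus the Ct. Assays detected in at least 2 samples per group (302 and 249) were tested together with limma 3.58.1 in R 4.3.3 (lmFit, eBayes, two-sided, prior of 1.62 degrees of freedom) with Benjamini-Hochberg adjustment. The procedure was tested on simulated Ct values with equal noise in every simulated well and 3 samples per group. That test does not cover the uneven spread of these assays or the 2 samples per group of the second card. Single contrasts used exact permutation tests. Precision is limited by there being 3 samples per group, or 2 on the second card.

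The members, the lists of relatives and markers, and the exclusion of the shared second-card values were chosen with earlier results of these data known. Named are all members, opposite strands, paralogs, seed relatives and control RNAs and the 5 other first-card assays nearest in profile; cell type markers are given by list, and those named singly were chosen after their values were seen. Same-numbered samples of the groups did not deviate together on the first card (correlations of -0.34, -0.23 and -0.18), so the numbers were not taken as pairs. Sequences and coordinates are from RefSeq (GRCm38.p6).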

Additional observations from a re-analysis of the deposited data

How the results depend on the processing

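Over 20 alternatives to the processing, 0 of 120 member values passed the adjusted threshold (adjusted p from 0.201 to 0.962) and 119 kept their sign. Several of the alternatives altered only other assays, the second card or the variance. Under these the members' fold changes could not move, so part of the kept signs was fixed in advance. The sign that turned was that of miR-20a, which ran from -0.35 to 0.028 with 1 sample left out. The median of the members moved to -1.03 with the small RNA controls as reference and to -1.23 without normalization, and ran from -0.62 to -0.25 with 1 sample left out. The members whose groups did not overlap numbered 6 with the small RNA controls, 0 with U6, quantile normalization or a Ct ceiling of 32, and 2 to 4 with 1 sample left out. The assays past the threshold numbered 1 with quantile normalization, a Ct ceiling of 32, the first card alone or a variance trend, 7 without a Ct ceiling, and 0 to 1 with 1 sample left out; none was a member.

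With the replicate number as a block, 0 assays passed and no call changed. The median of the members stayed at -0.47, as it must, since the groups are balanced over the blocks. The block fit could not be made for second-card assays, and leaving out a sample that has second-card values left those assays untested. Signs turned as follows. With the median of the detected assays, miR-18a# was at 0.34, miR-20a# at 0.33 and miR-92a# at 0.37. With the small RNA controls these were at 0.099, 0.088 and 0.13 and miR-367 at -0.51. With U6 they were at 0.35, 0.34 and 0.38, and with both cards scaled to the first at 0.63, 0.62 and 0.66, with rno-miR-20b at 0.26. Quantile normalization gave miR-18a# 0.19 and miR-92a# 0.36, a Ct ceiling of 32 gave miR-92a# 0.012, and no normalization gave miR-367 -0.71. With 1 sample left out, miR-367 ran from -0.084 (without hyperoxia replicate 3) to 0.22, being -0.0057 without replicate 1, and miR-25 from -0.098 (without replicate 2) to 3.02. The cause of these turns was not tested.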
